A study of Rattus norvegicus with 18 samples.

Results

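The 3 colonies that expressed osteocalcin and adipsin together ("both" colonies) were compared with the 3 colonies that expressed neither ("neither" colonies), 6 of the 9 single-cell-derived fetal rat calvaria colonies and 12 of the 18 arrays of the study. The colonies were taken by their labels, JEACFU-Bi-I to III for both and JEACFU-F-I to III for neither. The other 3 colonies expressed osteocalcin alone and entered the fit to estimate the spread. The labels give no genotype, and all colonies had the same culture: flow cytometry placed single cells from primary calvaria culture, which grew for 4 weeks at 37 °C and 5% CO2 in a-MEM that held serum, ascorbic acid, BGP and Dex (the last pair not spelled out). RNA came from 100 to 300 cells per colony, was amplified by a small-sample labelling protocol and was read on an RAE230A array (chip A) and an RAE230B array (chip B). Each colony is a clone of 1 cell and was read once per chip. The p-values rest on how far such arrays differ within a type. Differences between clones, amplifications and arrays cannot be told apart in that spread. Strain, fetal age and whether clones share a preparation of cells are not stated in the labels.

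Fetal calvaria is the flat bone of the skull, and its cells hold progenitors that form bone nodules or fat cells in culture. Osteocalcin (gene Bglap) is a bone matrix protein made late in osteoblast maturation, and adipsin (gene Cfd, complement factor D) is a serine protease secreted by adipocytes. Fibroblast-like and osteoblast-like cells surround themselves with collagen fibrils that are bound by small leucine-rich proteoglycans and broken down by matrix proteases outside the cell and by cathepsins in lysosomes.

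No transcript passed the test between both and neither colonies. Of 19314 probe sets tested by limma, 0 (0.0%) had an adjusted p under 0.05, and the smallest adjusted p was 0.159. At an unadjusted p under 0.05, 1071 probe sets (5.55%) were higher in both colonies and 812 (4.2%) were lower. The shares of genes, at 1 probe set each, serve as the background for gene lists: of 10080 genes 53.6% were higher in both colonies, 6.87% had all both colonies above all neither colonies and 7.41% had them under. A single both colony lay above all 3 neither colonies for 22.1% to 24.0% of genes. Without overlap between the types, the 3 both colonies lay above the 3 neither colonies for 1225 probe sets (6.34%) and under them for 1604 (8.3%). Large differences were few: 79 probe sets differed by more than +2 log2 units and 22 by less than -2. A difference over +1 was found for 7.5% of probe sets and one under -1 for 5.33%. The median standard error of a difference was 0.50 log2 units. In simulated data with as many colonies, 27.2% of probe sets changed by 2 log2 units and 59.7% of those changed by 3 were called. The simulated noise was independent between arrays and probe sets. It held no station, lot or spike-in difference, so the shares may differ for the real arrays. All genes named in the following are therefore described by their values, and none is called changed.

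Some array measures differed between the types. The 18 spike-in control probe sets read bacterial and phage sequences that are added to the samples and are not rat genes. On chip A their mean log2 signal was 14.2, 13.3 and 14.8 in both I, II and III and 15.9, 15.5 and 17.6 in neither I, II and III. All 3 neither colonies lay above all 3 both colonies, a ratio of 4.68 (two-sided exact permutation p = 0.1, the smallest that 3 against 3 can give), and on chip B they did so by a ratio of 2.61. The median signal of an array ran from 701 to 734 in both colonies and from 817 to 987 in neither colonies on chip A. Dim probe sets tended to be lower and bright ones higher in both colonies. In the brightest quintile of chip A, 156 probe sets (8.28%) had the both colonies above and 35 (1.86%) had them under the neither colonies, while in the second dimmest quintile these numbers were 62 (3.29%) and 274 (14.5%). The median difference was +0.19 in the brightest quintile of chip A and +0.30 in that of chip B. With the spike-in level of each array as a covariate, 0 probe sets were called and the 30 genes named first kept their direction. The 3′ to 5′ signal ratio of Gapdh, a sign of transcript integrity, was 8.64 to 13.8 in both colonies and 2.08 to 12.4 in neither colonies on chip A, with neither II the lowest (exact permutation p = 0.5). On chip B it was 13.8 to 16.4 against 2.12 to 12.6, without overlap (exact permutation p = 0.1). The same ratio of beta-actin was 9.56 to 14.7 against 5.71 to 12.97 on chip A (p = 0.5) and 9.81 to 11.1 against 5.32, 48.7 and 6.95 on chip B (exact permutation p = 1.0), where neither II was the highest. The part of these array measures in the gene differences was not tested beyond the covariate.

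**Figure D1:**
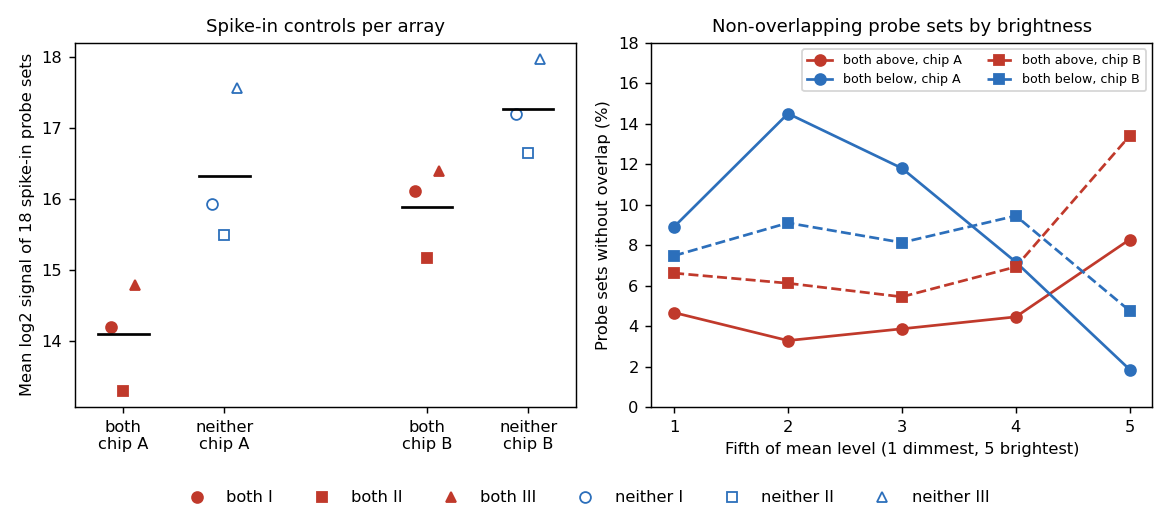
Left, mean log2 signal of 18 spike-in control probe sets on each array, with 1 symbol per colony and a line at the mean of 3. Right, percent of probe sets whose 3 both colonies lay above (red) or under (blue) the 3 neither colonies, by quintile of mean level on chip A (solid) and chip B (dashed). The neither arrays carry more spike-in signal, and the share of probe sets with both above reaches 8.28% and 13.4% in the brightest quintiles.

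Processing batches were recorded in the deposited array records and were not balanced. On chip A the fluidics station that held all 3 neither colonies also held both III, while both I and both II were on the other station. On chip B the station with all 3 both colonies also held neither I. Values within a station therefore compare both III with 3 neither colonies on chip A and 3 both colonies with neither I on chip B, and for the 30 genes named first, the markers and list members they are given where they turn a difference or move it by over 1.5 times. For gene lists they cover the members read on chip A. The median of 15 of the 34 gene lists changed sign within the chip A station, that of 19 with the spike-in level as a covariate, and that of 20 in at least 1 of them. On chip B no chip lot held both and neither colonies together, so these types could not be compared within a lot. Only osteocalcin-only colonies linked them: I shared a lot with the neither colonies, and II and III shared a lot with both I. With lot as a random block on chip B, 21 probe sets were called, against 0 without it. The fitted correlation within a lot was negative (-0.17), so these calls are not read as changes that a lot effect had hidden.

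The transcripts of the 2 typing markers did not separate the types. Bglap stood at a log2 level of 8.02, 8.02 and 8.15 in both I, II and III and at 8.14, 8.22 and 9.07 in neither I, II and III. All 6 values were dim, the ranges overlapped only at their edge, and the highest belonged to neither III. The difference was -0.41 (SE 1.055, adjusted p = 0.906), opposite to the label (two-sided exact permutation p = 0.2). Cfd stood at 8.94, 9.35 and 9.57 in both colonies and at 8.46, 9.03 and 9.10 in neither colonies, a difference of +0.42 (SE 0.63, adjusted p = 0.829, exact permutation p = 0.3), and +0.71 within 1 station. For the 2 markers the SE and adjusted p come from the moderated fit, which also draws on the spread of other probe sets. They do not measure the spread of the 6 values of a marker alone. Since the colonies were typed by these markers, the values are no finding. Bglap lay at percentiles 1.36, 1.25 and 3.83 of the probe sets in both I, II and III. In osteocalcin-only I, II and III it lay at 2.2, 3.04 and 4.34. A probe set so near the floor in every colony typed as expressing osteocalcin cannot check that label. The deposited labels do not say by which method or at which threshold a marker was scored.

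The genes with the smallest p and the largest differences among probe sets without overlap were chosen by rule, 15 in each direction. Among the 15 that were higher in both colonies, the largest difference was that of Ackr4, an atypical chemokine receptor that binds and removes the chemokines CCL19, CCL21 and CCL25. Its signal was 10640, 13450 and 10260 in both I, II and III and 1440, 737 and 327.5 in neither I, II and III. Every both colony had several times the signal of the highest neither colony. On the log2 scale the difference was +3.44 (SE 0.58, adjusted p = 0.159), a ratio of 10.8, and within 1 station of chip B it was +2.72. The osteocalcin-only colonies stood at log2 levels of 9.39, 11.40 and 9.0, all under the 13.37 to 13.75 of the both colonies. Ackr4 was the 1 probe set called when both and neither arrays were fitted alone.

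Several of the 15 encode enzymes. Gda, guanine deaminase, which turns guanine into xanthine, stood at 11.66, 12.49 and 12.54 in both colonies and at 10.28, 8.40 and 8.43 in neither colonies. The gap lay between both I and neither I, and neither II and neither III were near the dim end of the array. The difference was +3.20 (SE 0.51, adjusted p = 0.159), its other probe set gave +2.01 with no overlap either, and the first was called without neither I. Acat1, the mitochondrial thiolase that acts in ketone and isoleucine breakdown, was 11.19 to 11.44 in both colonies and 9.35 to 9.54 in neither colonies (+1.88, SE 0.33, adjusted p = 0.177). Its probe set on chip B gave +0.50 with overlap. Gstm4, a glutathione transferase, differed by +2.36 (SE 0.43) and Lpcat3, which places polyunsaturated fatty acids into phospholipids, by +1.75 (SE 0.33), with the other Lpcat3 probe set at -0.29.

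Signalling and transport genes were the next group. Ankh, a membrane protein that raises pyrophosphate outside the cell, which holds back mineral formation, was 12.43 to 13.11 in both colonies and 9.88 to 10.89 in neither colonies (+2.45, SE 0.47, adjusted p = 0.177). Its other probe sets were less apart, at +0.82 on chip B and -0.23 on chip A. Cped1, a gene near bone density loci in human studies, differed by +2.76 (SE 0.49), with 12.25 to 12.64 against 9.39 to 10.25. Ptpn12, a tyrosine phosphatase of the cell adhesion machinery, differed by +2.56 (SE 0.53) but by +1.42 within 1 station. Sox4, a transcription factor of progenitor cells, differed by +2.70 (SE 0.63), while 3 of 4 further Sox4 probe sets were under 0, 1 of them (-1.30) with all both colonies under all neither colonies, and +1.43 within 1 station. Ppp6r1, a regulatory subunit of protein phosphatase 6, and Nf2, the tumour suppressor merlin, differed by +2.05 and +1.99, and each had another probe set at or under 0 (-0.05 for Ppp6r1, -1.49 and -0.77 for Nf2, both with all both colonies under all neither colonies). Of the 15 genes, 7 lay in the 3 dimmer quintiles of their chip, with Ppp6r1, Nf2, Gstm4 and Lpcat3 in the dimmest of chip A. Over the 15 genes the within-station differences ran from +1.40 to +3.50. Their direction was fixed by the choice of genes without overlap and is no check on the station.

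**Figure D2:**
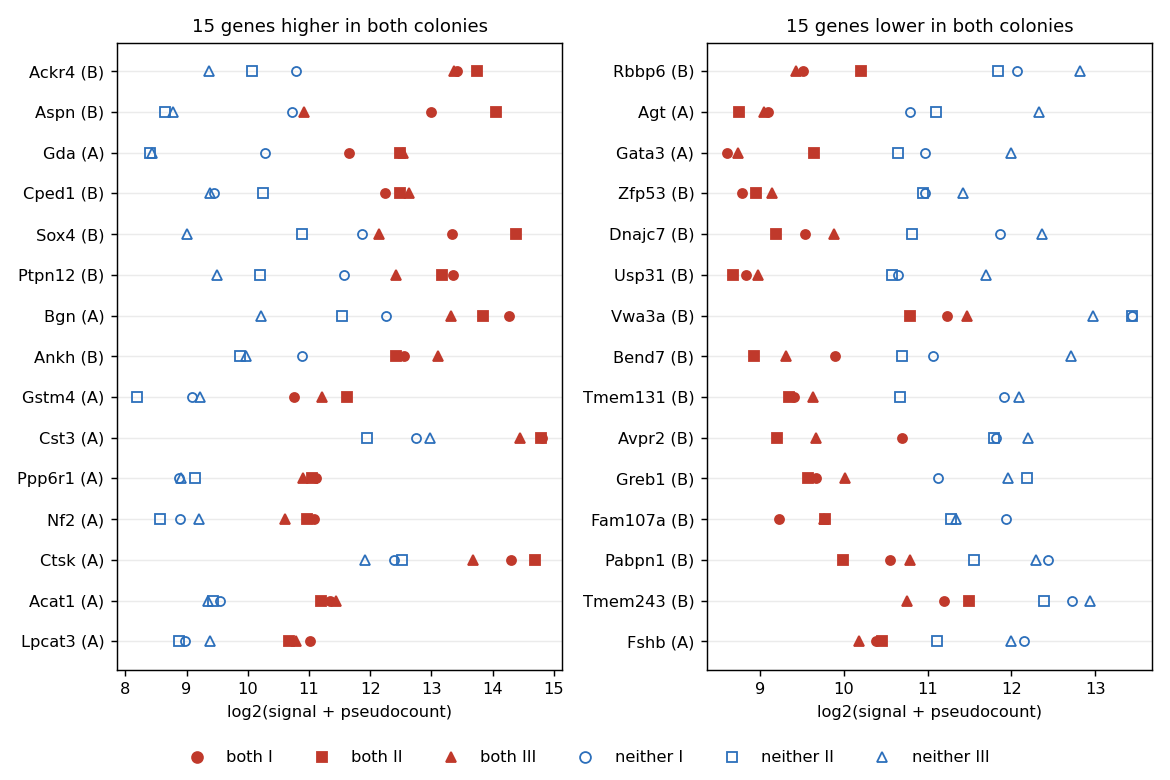
Log2(signal + pseudocount) of each both colony (filled red) and neither colony (open blue) for the 15 genes higher and the 15 genes lower in both colonies that the naming rule gave, with the chip in parentheses. The types do not overlap for any of the 30, which is how they were chosen; the width of the gap differs, from wide for Ackr4 and Cped1 to narrow for Aspn and Sox4.

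Lysosomal proteases and cystatins, their inhibitors, were higher in all 3 both colonies as a list. Of 12 cathepsins and cystatins tested, 11 were higher in both colonies, 5 above without overlap and 0 under, beside 6.87% and 7.41% of all genes, and the list median was +0.74, beside +0.05 over all 10080 genes tested. The mean log2 level of the list was 12.77, 12.83 and 12.90 in both I, II and III and 11.87, 11.98 and 12.07 in neither I, II and III. In osteocalcin-only I, II and III it was 12.63, 12.62 and 12.88, also above every neither colony. The higher level was thus not particular to the both colonies. Both III exceeded all neither colonies for 9 members, both I for 7 and both II for 6, where over all genes a both colony did so for 22.1% to 24.0%. The median was +0.50 without neither I and +0.84 without neither II, +1.01 within 1 station of chip A and +0.95 with the spike-in level as a covariate.

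Cst3, cystatin C, the secreted inhibitor of cathepsins, had signals of 28560, 28010 and 22120 in both colonies and 6636, 3724 and 7855 in neither colonies. Even the lowest both colony had more than the highest neither colony by a wide margin. The log2 difference was +2.12 (SE 0.37, adjusted p = 0.177). Ctsk, cathepsin K, a collagen-cleaving protease best known from osteoclasts, was 14.30, 14.69 and 13.68 in both colonies and 12.39, 12.52 and 11.92 in neither colonies (+1.95, SE 0.36, adjusted p = 0.177). The osteocalcin-only colonies lay between, at 13.28, 13.66 and 13.54. Ctsa, which protects lysosomal glycosidases, differed by +1.64 (SE 0.385, adjusted p = 0.301), and by +1.05 within 1 station. Ctsd, the main aspartic protease of lysosomes, differed by +1.26 (SE 0.415, adjusted p = 0.432) and Ctsz by +1.13 (SE 0.48), though for Ctsz both I at 9.73 was barely above neither I at 9.69. Ctsh (+0.98), Ctsb (+0.50), Ctsl (+0.49), Ctss (+0.19), Ctsf (+0.13) and Cstb (+0.13) overlapped between the types, and Cst6 was at -0.23. Within 1 station Ctsh turned to -0.42 and Cst6 to +0.70, while Ctsl (+1.25), Cstb (+1.05), Ctss (+0.64) and Ctsf (+0.48) were larger.

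Macrophages and osteoclasts also carry cathepsins. Of that marker list 9 of 20 genes were tested, 5 of them higher with a median of +0.28. Without overlap 1 lay above (Ctsk) and 1 under (Csf1r), beside 6.87% and 7.41% of all genes. The defining markers Ptprc, Itgam, Tyrobp, Acp5, C1qa, C1qb and C1qc were under the level filter. The mean level of the list was 10.38 to 11.02 in both colonies and 10.42 to 10.70 in neither colonies. Csf1r, the receptor that macrophages need to survive, was lower in all both colonies (9.74, 10.11 and 10.31 against 10.79 to 10.85). Cd68 was at -0.76, and at +0.32 within 1 station. Cd14, a co-receptor for bacterial lipopolysaccharide, was 10.76, 10.54 and 11.57 against 10.72, 10.66 and 8.76 (+0.91), and at +1.52 within 1 station.

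The promoters of the tested list members, whether or not the types overlapped for them, were read for a shared motif. The E-box CACGTG, a palindrome that reads alike on both strands, is bound by TFEB and related regulators of lysosomal genes. It occurs in 3 of the 10 promoters of list members found in the RefSeq promoter table (GRCr8, 250 bases before to 50 after the start), those of Ctsd, Ctsf and Cstb, and in 6.65% of all 27457 promoters. The promoters of Ctsd, which holds it 2 times, and Ctsk, which does not hold it, are shown as the contrast within the list, with the motif in capitals.
Ctsd promoter (chr1:206968772-206969071, minus strand): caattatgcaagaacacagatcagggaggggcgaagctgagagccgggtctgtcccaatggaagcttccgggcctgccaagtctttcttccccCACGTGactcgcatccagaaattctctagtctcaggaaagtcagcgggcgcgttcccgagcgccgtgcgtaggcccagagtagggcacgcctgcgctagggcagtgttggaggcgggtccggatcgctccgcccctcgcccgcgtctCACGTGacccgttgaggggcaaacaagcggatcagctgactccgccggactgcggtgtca
Ctsk promoter (chr2:185747298-185747597, plus strand): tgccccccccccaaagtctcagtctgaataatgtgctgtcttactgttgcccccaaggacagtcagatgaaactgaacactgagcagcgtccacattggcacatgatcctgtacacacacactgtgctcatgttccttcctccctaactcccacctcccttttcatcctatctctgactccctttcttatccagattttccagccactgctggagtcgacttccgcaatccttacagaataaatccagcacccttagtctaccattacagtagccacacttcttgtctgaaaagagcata
Of the 5 members without overlap, 1 (Ctsd) holds the motif, and Ctsf and Cstb hold it with differences near 0. A match is a description of the letters in this window.

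**Figure D3:**
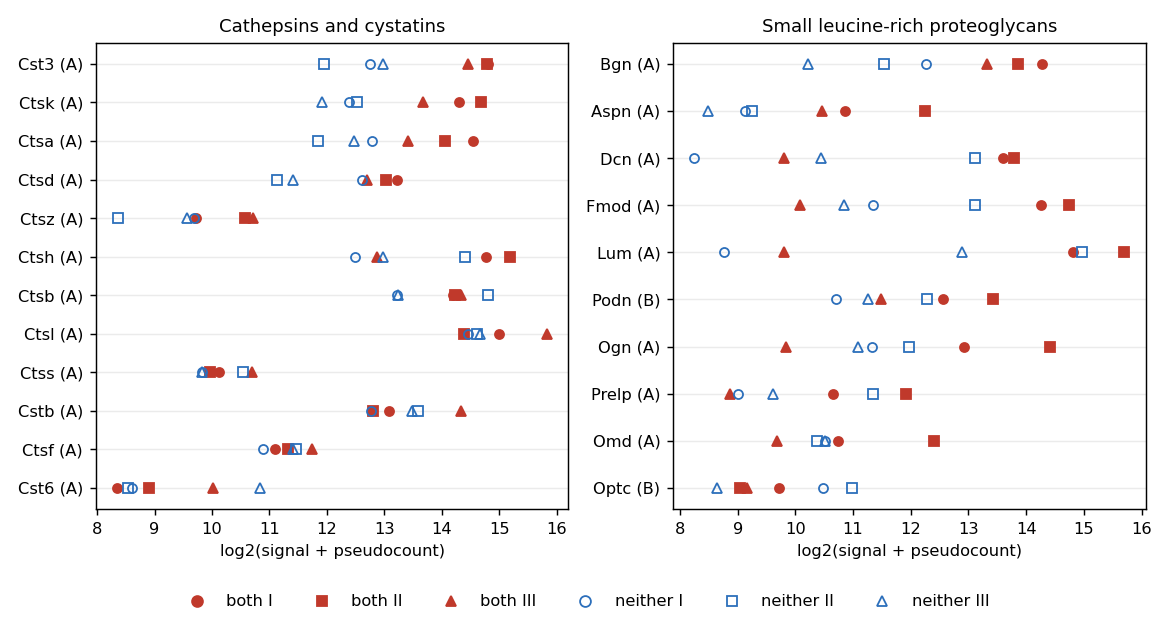
Log2(signal + pseudocount) of each both colony (filled red) and neither colony (open blue) for the 12 cathepsins and cystatins (left) and the 10 small leucine-rich proteoglycans tested (right), sorted by difference. On the left all 3 both colonies lead for the upper 5 genes; on the right both I and both II lead, while both III lies among or under the neither colonies for all but Bgn and Aspn.

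Small leucine-rich proteoglycans, which bind collagen fibrils and set their width, had the highest median of the 34 lists, +1.15, with 9 of 10 members higher. The higher level belonged to 2 of the 3 both colonies. Both I exceeded every neither colony for 7 members and both II for 9, but both III for 2. The mean level of the list was 12.44, 13.15 and 10.25 in both I, II and III and 10.18, 11.89 and 10.40 in neither I, II and III, so that both III lay among neither I and III, and neither II lay nearer to both I and II. The median was +2.40 without both III, +0.25 without both II and -0.96 within 1 station of chip A, where both III is the only both colony. It was -0.30 with the spike-in level as a covariate.

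Bgn, biglycan, and Aspn, asporin, were the 2 members in which both III took part. Bgn was 14.27, 13.85 and 13.32 in both colonies and 12.26, 11.54 and 10.21 in neither colonies (+2.48, SE 0.49, adjusted p = 0.177). Aspn, a regulator of TGF-beta and BMP2 at the matrix, was 10.86, 12.24 and 10.46 against 9.13, 9.25 and 8.48 on chip A (+2.23, SE 0.51, adjusted p = 0.296) and differed by +3.28 (SE 0.72, adjusted p = 0.177) by its probe set on chip B (+1.93 within 1 station), where both III at 10.92 was close to neither I at 10.72. The others split within both types. Dcn, decorin, was 13.60, 13.79 and 9.80 in both colonies and 8.25, 13.11 and 10.45 in neither colonies. Lum, lumican, was 14.81, 15.70 and 9.81 against 8.77, 14.96 and 12.88, and Fmod, fibromodulin, was 14.25, 14.74 and 10.08 against 11.34, 13.12 and 10.85. In these 3 genes neither II had more than both III by over 3 log2 units, and within 1 station they were at -0.80, -2.39 and -1.69 in that order.

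Other genes split the colonies in the same places. Igf1, insulin-like growth factor 1, was 13.51, 14.32 and 9.85 in both colonies and 8.62, 13.42 and 9.08 in neither colonies (+2.18, SE 1.40, adjusted p = 0.606, and -0.52 within 1 station). Igf2 was 12.59, 14.93 and 10.31 against 10.89, 10.55 and 9.63 (+2.25, SE 0.87), within 1 station of chip A it was at -0.05, and its other probe set was at -0.85. C1s, the complement protease, was 14.30, 14.90 and 10.35 against 10.49, 14.73 and 10.33 (+1.33, and -1.50 within 1 station). C3, the central complement protein, was 13.22, 14.65 and 9.86 against 10.53, 13.23 and 11.09 (+0.96, and -1.76 within 1 station). The complement list had 8 of 11 members higher, 1 above and 2 under without overlap (6.87% and 7.41% of all genes). Its median was +0.75, but -0.57 within 1 station of chip A and -0.59 with the covariate. For Igf1, C1s and C3 the high colonies were both I, both II and neither II, while for Igf2 neither II was low. No gene of these lists passed the test.

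Of 20 collagen chains 12 were higher, with a median of +0.09 and none without overlap in either direction (6.87% and 7.41% of all genes). The median was -0.93 within 1 station of chip A and -1.01 with the spike-in level as a covariate. Both I exceeded every neither colony for 9 chains and both II for 8, while both III did so for 0. Col6a1, a chain of beaded type VI filaments, was 13.83, 13.88 and 12.43 against 11.95, 12.78 and 11.37 (+1.35, SE 0.47, adjusted p = 0.439, and +0.40 within 1 station). Col8a2 was 13.55, 13.55 and 10.02 against 11.15 to 11.69, and it was at -1.41 within 1 station. Col1a1, the main chain of bone collagen, was bright in all 6 colonies (14.07 to 17.54) and was at -0.23, and at -1.32 within 1 station. Collagen-modifying enzymes and chaperones had 16 of 21 members higher with a median of +0.30, which was +0.04 without neither III and -0.0072 with the covariate. P4hb, the disulfide isomerase subunit of prolyl hydroxylase, was 15.04 to 15.16 in both colonies but also 15.18 in neither I.

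Matrix proteins of other families included a few separations shared by all both colonies. Efemp2, fibulin-4, which is needed to assemble elastic fibres, was 14.62, 14.84 and 14.79 in both colonies and 12.42, 12.86 and 12.39 in neither colonies (+2.19, SE 0.46, adjusted p = 0.177). Its other probe set gave +1.77, also with no overlap. Ccn5, a secreted matricellular protein, was 14.14, 14.36 and 13.79 against 12.36 to 12.59 (+1.59, SE 0.39, adjusted p = 0.338). The extracellular proteases and their inhibitors had 13 of 18 members higher, 3 above without overlap and 0 under (6.87% and 7.41% of all genes), and a median of +0.35, which was -0.085 within 1 station of chip A and -0.09 with the spike-in level as a covariate. Mmp23 (+1.57, SE 0.45, with +2.01 and +0.40 by its chip B probe sets), Mmp19 (+1.38, SE 0.52, and +2.47 within 1 station) and the serpin Serpinf1, also known as PEDF (+1.11, SE 0.34), were the 3. Mmp2, gelatinase A, was 14.05 to 14.81 against 12.54 to 14.34 (+1.05, and +0.62 within 1 station). The elastic fibre and microfibril list as a whole had 8 of 12 members higher (median +0.33, and -0.40 within 1 station), with Eln, elastin, at -0.75 and Fbln1 at -1.13 (-2.32 within 1 station). Among adhesion receptors, Itgb5, the integrin beta 5 chain, was 12.60 to 13.26 against 9.35 to 11.71 (+2.35, SE 0.49, adjusted p = 0.188), while its further probe sets gave +1.53, -0.07 and -0.08. Sdc4, syndecan-4, was at +1.41 (SE 0.38), and at +0.67 within 1 station.

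**Figure D4:**
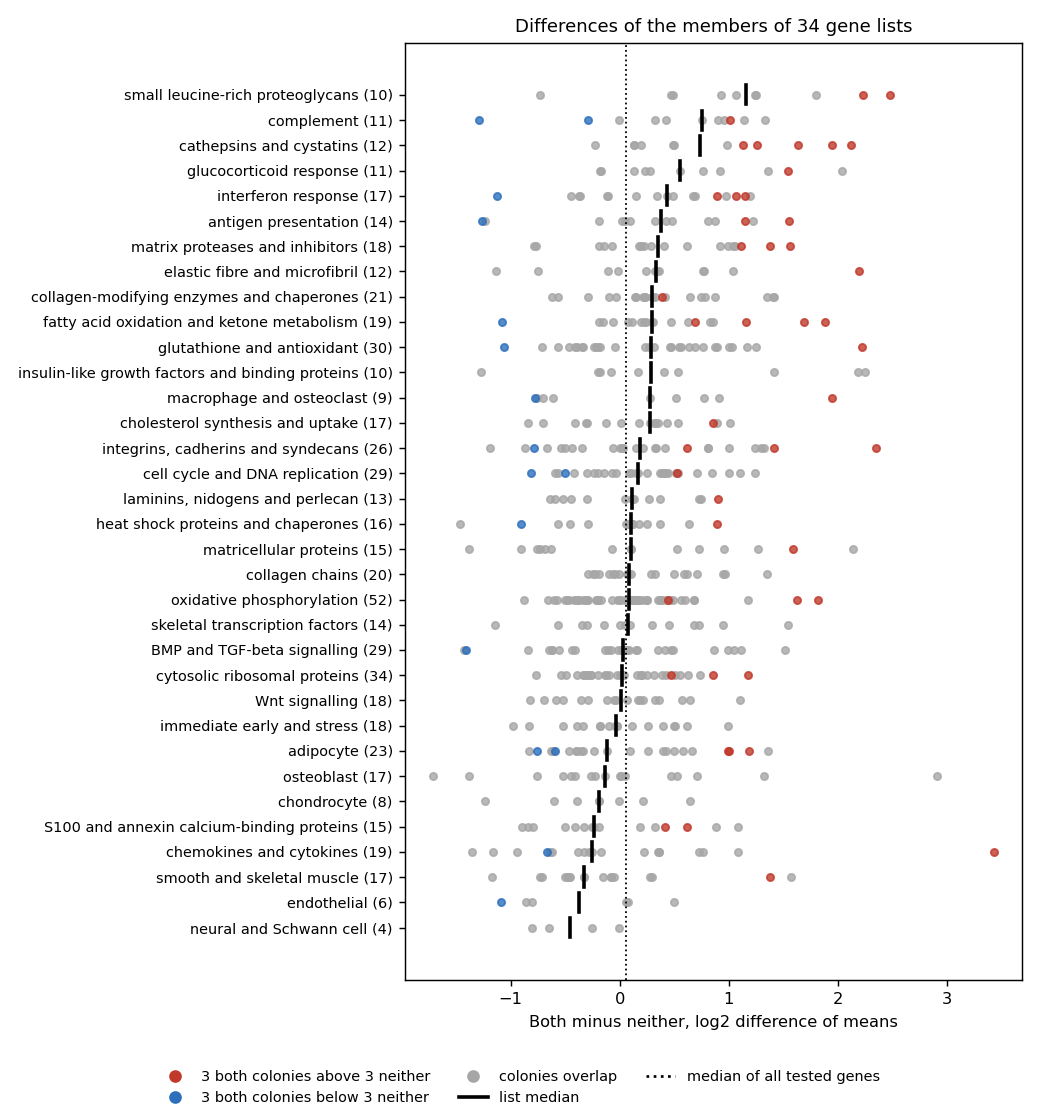
Difference of the means of 3 both and 3 neither colonies for each tested member of 34 gene lists (points, number tested in parentheses), in red or blue where the 3 both colonies lay above or under the 3 neither colonies, with the list median (black bar) and the median of all tested genes, +0.05 (dotted line). The medians of 30 of the 34 lists lie within 0.5 log2 units of 0, and 4 lie over 0.5: small leucine-rich proteoglycans, complement, cathepsins and cystatins, and glucocorticoid response.

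The osteoblast and adipocyte lists, to which the 2 typing markers belong, had medians near 0. Of 17 osteoblast genes tested, 8 were higher and 9 lower in both colonies, 0 without overlap in either direction (6.87% and 7.41% of all genes). The median was -0.14, and -0.33 within 1 station of chip A and +0.13 with the covariate. Alpl, Ibsp, Phex and Smpd3 were under the level filter. Cthrc1, a secreted protein of bone and wound matrix, was 17.98, 17.70 and 14.57 in both colonies and 12.81, 15.52 and 13.20 in neither colonies (+2.91, SE 0.91, adjusted p = 0.428). Both III lay between neither I and neither II. Enpp1, which makes pyrophosphate, was 11.72, 8.20 and 10.82 against 13.10, 11.88 and 10.89 (-1.71, SE 0.75), without both II it was at -0.69, and within 1 station it was at -1.14. Spp1, osteopontin, was bright in all 6 colonies (14.62 to 17.88) and was at -0.76, and at +0.26 within 1 station.

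Of 23 adipocyte genes tested, 11 were higher and 12 lower, 3 above and 2 under without overlap (6.87% and 7.41% of all genes). The median was -0.12, and +0.25 within 1 station of chip A and +0.19 with the covariate. Fabp4, Cebpa, Lpl, Plin1, Cidec, Cd36 and Lep were among 9 genes under the filter. Scd2, a fatty acid desaturase, was 11.45, 12.15 and 10.47 against 9.86 to 10.35 (+1.19, SE 0.42, adjusted p = 0.439, and +0.30 within 1 station), with another probe set at -0.78, where the both colonies were lower without overlap. Pnpla2, the triglyceride lipase ATGL, was 10.18, 9.67 and 10.40 against 8.78, 9.09 and 9.39 (+1.00). Dgat1, which makes triglyceride, was 10.77, 10.72 and 12.40 against 10.57, 9.68 and 10.63 (+1.00, and +2.11 within 1 station). Dgat2 and Pck1 were lower in all both colonies, by differences of -0.60 (-0.36 within 1 station) and -0.76. Pparg, the adipocyte master regulator, was 9.66, 9.68 and 11.25 against 10.56, 9.08 and 9.22 (+0.58, and +1.63 within 1 station). Both III thus had the most Pparg and Dgat1 of the 6 colonies, and it exceeded every neither colony for 10 of 23 adipocyte genes, against 3 for both I and 6 for both II.

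Of 19 genes of fatty acid oxidation and ketone metabolism 15 were higher, 4 above without overlap and 1 under (6.87% and 7.41% of all genes), with a median of +0.29. Acad11, an acyl-CoA dehydrogenase, was 13.01, 12.64 and 13.03 against 10.45, 11.43 and 11.76 (+1.69, SE 0.51, adjusted p = 0.413). Hadh was 11.25 to 11.44 against 9.59 to 10.65 (+1.16, SE 0.34). Cpt1a, the gate of fatty acid entry into mitochondria, pointed the other way (10.34 to 11.02 against 11.33 to 12.29, -1.08). Of 52 oxidative phosphorylation genes 29 were higher, with a median of +0.08 that was +0.54 within 1 station of chip A and +0.56 with the covariate, and both III exceeded every neither colony for 32 of 52 genes, against 8 for both I and 5 for both II. Of 34 cytosolic ribosomal proteins 18 were higher, with a median of +0.02 that was +0.42 within 1 station of chip A and +0.47 with the covariate, and both III was above every neither colony for 16. Ndufv1, a complex I subunit, was 10.70 to 10.88 against 8.40 to 9.81 (+1.63, SE 0.40, adjusted p = 0.340). Gpx3, the secreted glutathione peroxidase, was 14.37, 14.95 and 15.77 against 13.59, 12.79 and 12.03 (+2.23, SE 0.59, adjusted p = 0.397).

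The medium additive that the labels call Dex was the same for every colony. Of 11 glucocorticoid response genes tested 9 were higher in both colonies, 1 above without overlap and 0 under (6.87% and 7.41% of all genes), with a median of +0.55. Tsc22d3, known as GILZ, was 12.54, 12.96 and 12.92 against 11.70, 12.43 and 9.66 (+1.54, SE 0.57, adjusted p = 0.450). Its difference was +0.74 without neither III and +0.16 with the spike-in level as a covariate. Mt2A, a metallothionein, was 15.16, 14.79 and 14.08 against 10.50, 15.53 and 11.89, so neither II had the most. The list median was +1.27 within 1 station of chip A, +0.32 without neither III and +0.16 with the covariate.

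Interferon response genes had 11 of 17 members higher, 3 above without overlap and 1 under (6.87% and 7.41% of all genes), and a median of +0.43. Ifi27 was 14.71, 15.49 and 14.91 against 13.70, 14.27 and 13.93 (+1.06, SE 0.35, adjusted p = 0.434), and Psmb8, an immunoproteasome subunit, was 10.75 to 10.98 against 9.56 to 9.95 (+1.15, SE 0.38). Bst2, a membrane tether of viruses, was lower in all both colonies (-1.13, SE 0.385, and -0.57 within 1 station). The median of the list was -0.02 within 1 station of chip A. In the antigen presentation list 11 of 14 members were higher (median +0.37, and +0.07 within 1 station of chip A), with the proteasome activator Psme1 at +1.55 (SE 0.43, its other probe set at -0.36) and Cd74, the class II invariant chain, at -1.27 (SE 0.40). Among chemokines, Ccl2, which draws monocytes, was 13.26, 12.51 and 13.25 against 16.07, 12.95 and 14.08, and its difference of -1.36 was -0.50 without neither I.

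Growth-related genes varied within the both colonies. Of 29 cell cycle and DNA replication genes tested 18 were higher, with a median of +0.17 that turned to -0.54 within 1 station of chip A and to -0.16 with the covariate, and both II exceeded every neither colony for 19 of them, against 9 for both I and 3 for both III. Prc1, a midzone protein of dividing cells, was 12.08, 13.27 and 9.75 against 11.80, 11.31 and 8.98 (+1.0, and -0.10 within 1 station of chip B). Mki67, Top2a and Aurkb were under the level filter. Of 18 Wnt genes 9 were higher, with a median of +0.01 that was -0.58 within 1 station of chip A and -0.32 with the covariate. Of 29 BMP and TGF-beta genes 16 were higher, with a median of +0.03 that was -0.10 within 1 station of chip A and -0.27 with the covariate. Bmp6, a bone morphogenetic protein, was 9.76, 10.68 and 9.78 against 12.15, 10.93 and 11.37 (-1.41, SE 0.44, adjusted p = 0.428).

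Among the 15 genes that were lower in both colonies, 12 were read on chip B and 11 lay in the 3 dimmer quintiles of their chip. Of these 11, 9 were on chip B, where the median difference of all probe sets in these quintiles was -0.08, -0.05 and -0.02, and 2 (Agt and Gata3) were on chip A, where it was -0.10, -0.19 and -0.09. Agt, angiotensinogen, the precursor of angiotensin II that liver and fat secrete, had signals of 308, 191 and 291 in both colonies and 1536, 1956 and 4911 in neither colonies. Every neither colony had several times the signal of the highest both colony. The log2 difference was -2.44 (SE 0.54, adjusted p = 0.255), it was -2.36 within 1 station, and with the spike-in level as a covariate it was -1.15. The osteocalcin-only colonies were at 9.53, 10.86 and 8.86, of which only the first lay between the types.

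Vwa3a had the smallest p of the lower genes, at 11.23, 10.79 and 11.47 against 13.44, 13.44 and 12.97 (-2.12, SE 0.42, adjusted p = 0.177), and was 1 of 3 genes of the 15 that were brightest or second brightest on chip B. Rbbp6, a ubiquitin ligase, had the largest difference of the 15 (-2.52, SE 0.55), and its further probe sets gave -1.60, +0.76 and +0.31. Gata3, a transcription factor of T cells and several epithelia, was 8.61, 9.65 and 8.74 in both colonies and 10.65 or more in every neither colony (-2.21, SE 0.59), with +0.27 by its chip B probe set and -0.97 with the covariate. Greb1, an oestrogen-responsive gene, was at -2.0 (SE 0.475) and Fam107a, an actin-binding protein, at -1.92 (SE 0.52).

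Some of the lower genes are best known from other organs. Fshb, the beta chain of follicle-stimulating hormone made in the pituitary, was at -1.41 (SE 0.35) and at -1.39 by its other probe set. Avpr2, the vasopressin receptor of the kidney, was at -2.08 (SE 0.53), and both its other probe sets were at -0.83 and -0.94. The co-chaperone Dnajc7 (-2.14), the collagen secretion factor Tmem131 (-2.09), the deubiquitinase Usp31 (-2.14) and the poly(A)-binding protein Pabpn1 (-1.65) followed, and for Dnajc7, Tmem131 and Pabpn1 at least 1 other probe set pointed the other way. Over the 15 genes the within-station differences ran from -2.47 to -1.37 and those with the covariate from -1.90 to -0.97. The within-station direction was again fixed by the choice of genes without overlap.

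Markers of other cell types had pooled medians under 0, apart from macrophages and osteoclasts, but the direction of some lists depended on the setting. The smooth and skeletal muscle list had 4 of 17 members higher (median -0.33, but +0.44 within 1 station of chip A and +0.59 with the covariate). The endothelial list had 3 of 6 higher (median -0.38, with -0.61 and +0.04 in these settings), with Pecam1, Kdr and Vwf under the filter and Flt1 at 9.20 to 10.04 against 10.36 to 11.35. The chondrocyte list had 2 of 8 higher (median -0.19, with -0.22 and -0.14), with Sox9, Col10a1 and Comp under the filter. The neural and Schwann cell list had 0 of 4 higher (median -0.45, but +0.23 and +0.17 in these settings). Acta2, smooth muscle actin, was 14.16, 11.85 and 16.15 in both colonies and 13.29, 12.64 and 15.40 in neither colonies (+0.28, and +2.37 within 1 station). In bulk RNA fewer cells of a type and less RNA per cell cannot be told apart, and whether other cells took part in any difference was not tested.

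Genes read more than once gave a further view, chosen after the values were seen. Of 2337 genes with at least 2 different probe sets tested, 14 had every probe set higher in all both colonies and 10 had every probe set lower. Over all single probe sets 6.34% lay above and 8.3% under, so some genes can be expected to have 2 such probe sets without any link. The 14 and 10 were not compared with that number and are a description only. The 14 included Aspn, Gda, Efemp2, Tm4sf1, a membrane protein of spreading cells (+2.20 and +2.10), Eef1a1, the translation elongation factor (+1.80 and +1.60), the kinase Jak1 (+1.51 and +1.58) and the GTPase Rhoj (+1.15 and +1.04). The 10 included Fshb, Plxdc1 (-1.39 and -1.77), Tfap2b (-1.64 and -0.55) and Cdk11b (-1.62 and -0.64). None had an adjusted p under 0.159.

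The 98 tested probe sets present on both chips showed a shift between the chips. On chip A 61 of them were higher in both colonies, with a median difference of +0.08. On chip B all 98 were higher, with a median of +0.90. The differences on the 2 chips went together across these probe sets (Pearson's r = 0.62, across probe sets that share the same RNA), but those on chip B were larger. No chip B difference given here, such as those of Ackr4, Cped1, Ankh and Aspn, is adjusted for this shift. Over all tested probe sets of chip B the median difference was -0.08 to +0.01 in the dimmer quintiles and +0.30 in the brightest. The shift of the 98 may therefore not hold for other probe sets. On both chips alike, 9 of the 98 had the 3 both colonies above the 3 neither colonies without overlap, and 0 had them under. In either direction, 11 of the 98 did not overlap on chip A and 48 on chip B. Over all probe sets 6.34% lay above and 8.3% under. As both chips read the same RNA and chip B was shifted, the 9 are a description only. Capns1, the small calpain subunit, was 12.23, 12.42 and 11.93 against 11.82, 10.40 and 10.44 on chip A (+1.30) and differed by +1.79 on chip B. Sumo2, a ubiquitin-like modifier, was 13.66, 13.71 and 13.78 against 12.72, 12.63 and 12.99 (+0.94), and by +1.55 on chip B. Arf1 and Cdc42, small GTPases of vesicle traffic and cell shape, differed by +1.15 and +0.67 on chip A and by +1.82 and +1.73 on chip B.

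**Figure D5:**
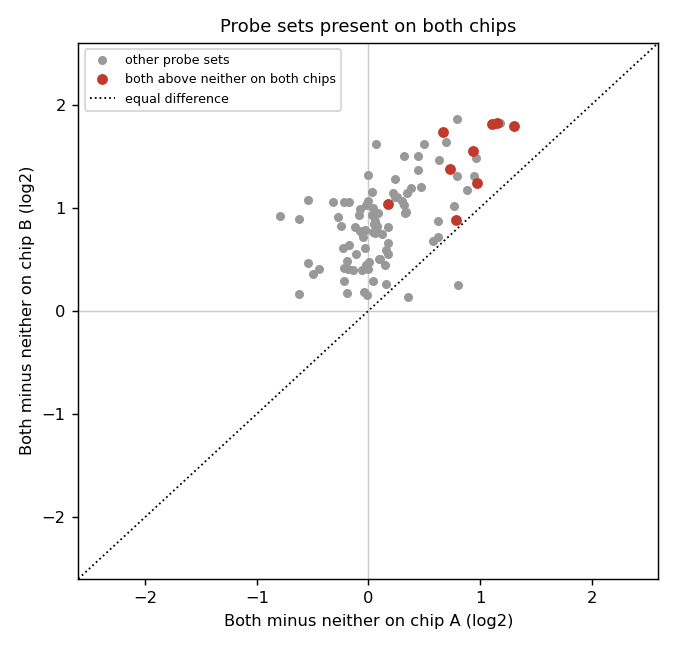
Difference between 3 both and 3 neither colonies on chip A (x axis) and chip B (y axis) for the 98 tested probe sets present on both chips, in log2 units, with equal differences on the dotted line. Nearly all points lie above that line, with medians of +0.08 on chip A and +0.90 on chip B, and the 9 probe sets without overlap on both chips (red) are all higher on each.

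The profiles of the both colonies were more alike than those of the neither colonies. Mean Pearson's r across tested probe sets was 0.82 on chip A and 0.67 on chip B among both colonies, 0.68 and 0.40 among neither colonies, and 0.74 and 0.48 between the types. These are descriptions across probe sets with 3 pairs within a type. Neither III had the lowest mean r with the other 8 colonies on each chip, 0.66 and 0.33, and also the highest spike-in signal. Without neither III, 0 probe sets were called, and 807 were higher and 584 lower at an unadjusted p under 0.05. Without neither II, 3 were called, with 1697 higher and 1315 lower.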

How the data were processed

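The 9 colonies gave 18 arrays, RAE230A as chip A and RAE230B as chip B. The authors deposited 1 linear signal intensity for each probe set, made with MAS5 per the submitters' processing notes, with no version stated. Stations, chip lots and hybridization days come from the deposited array records.

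Every array was scaled to a 2%-trimmed mean of 1500; all deposited arrays were already there except chip A of osteocalcin I (64.4). Values are log2(signal + pseudocount), with pseudocounts of 238.75 (chip A) and 336.168 (chip B), the median 25th percentile of the 9 arrays. This understates the change of dim genes. Probe sets above the array median on at least 3 of 9 arrays were kept, plus Bglap and Cfd, which left 9427 on chip A and 9887 on chip B. Names came from the platform annotation, from probe sets with 1 symbol only (12789 of 15923 on chip A, 7570 of 15333 on chip B). The files hold no counts, and precision is limited by how many arrays there are.

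The test was limma 3.58.1 (R 4.3.3) on the 9 arrays of a chip, with 3 type means and eBayes with an intensity trend, two-sided. Benjamini-Hochberg adjustment then ran over the 2 chips jointly. Exact permutation tests of 3 against 3 cannot give a p under 0.1. Named genes were, per direction, up to 12 with the smallest p and 8 with the largest difference among probe sets without overlap, the 2 markers, and up to 3 members per list with the smallest p. Further list members were named after their values were seen, to show how a list varied. A list used 1 probe set per gene, chip A first, then the brightest. The colonies, lists and rules were chosen with earlier results of these data known.

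In 10 simulations (19314 probe sets, 200 changed), 0.441% of probe sets changed by 1 log2 unit, 27.2% by 2 and 59.7% by 3 were called. Of the calls, 3.23% were false. The noise was independent between arrays and probe sets, without batch or array-wide differences, so these shares may not hold for the real arrays. Python 3.11.15 with matplotlib 3.10.9 made the plots. Chip lot as a block and the spike-in covariate were added after the data were seen; the closing part gives all alternatives.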

Additional observations from a re-analysis of the deposited data

How the results depend on the processing

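The call count was 0 in the reported fit and in most of the 24 alternatives. It was 1 with both and neither arrays alone (Ackr4) and 10 with array weights. It was 21 with chip lot as a random block on chip B, where the fitted correlation within a lot was negative (-0.17). When 1 colony was left out it was 0 to 3 (1 without neither I, 3 without neither II). At an unadjusted p under 0.05, the reported 1071 higher and 812 lower probe sets became 1204 and 1898 with no filter, 855 and 470 with a filter of 6 arrays, 735 and 436 with signals as deposited, 1635 and 1493 with array weights, 843 and 507 with station as a block, 126 and 98 within station 2 of chip A, and 675 and 327 within station 1 of chip B. Leaving out 1 colony gave 610 to 1697 higher and 462 to 1315 lower. Probe sets with the both colonies under the neither colonies numbered 3400 with no filter and 1033 with a filter of 6 arrays, against 1604. These changes follow in part from the number of probe sets or arrays used; their cause was not otherwise tested. Under quantile normalization the groups without overlap were 1312 above and 1193 under, and 1069 were higher and 631 lower at an unadjusted p under 0.05.

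Numbers I, II and III occur in each type. Deviations of same-numbered both and neither colonies correlated at 0.08, 0.24 and 0.32 on chip A and 0.06, 0.11 and 0.19 on chip B. On each chip 5 of 6 colonies correlated best with their own number, a hint from the data, not the design. As deviations are from the mean of a type, these matches are not independent. The spike-in level was also lowest in II and highest in III, in both and in neither colonies on each chip, but not in osteocalcin-only colonies. Its part in the correlations was not tested. With a replicate block 0 probe sets were called, and 1318 were higher and 869 lower at an unadjusted p under 0.05.

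Of 125 named probe sets 104 kept their direction in every alternative and 15 were called in at least 1. Within station 2 of chip A, and with station as a block, the direction turned for Cdh11 (-0.27), Myh11 (0.29), Cldn5 (0.14), Mbp (0.0537), S100b (0.99), Col8a2 (-1.41), Col12a1 (-0.88), Serping1 (-0.68), Cryab (0.46), Sfrp2 (-0.0187), Igf2 (-0.0497) and S100a10 (0.0526), and on chip B for Wnt11 (0.36). With the spike-in covariate it turned for Bglap (0.19), Matn1 (-0.14), Myh11 (0.59), Egfl7 (0.20), Cldn5 (1.46), Mbp (0.0037), S100b (0.34), Col8a2 (-0.81), Col12a1 (-0.98), Serping1 (-0.59), Dusp6 (-0.0029), Egr3 (0.61), Dnajb1 (-0.23), Cryab (0.79), Sfrp2 (-0.0234), Igfbp5 (0.35) and Mvk (0.73). With 1 colony left out, Sfrp2 ran from -0.104 (without both II) to 1.74 (without both I) and S100b from -0.88 (without both III) to 0.0922 (without both I), with 0.0169 without both II. None of these was called. The cause was not tested.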
